A study of Mus musculus with 8 samples.

Results

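Myc and 39 other genes that act in the Myc network or in building ribosomes were followed in PD-1+ and PD-1- CD4+ T cells of the neonatal mouse liver. The 40 genes form a list of symbols, and a symbol was kept where its counts summed over the 8 libraries reached at least 20. All 40 of 40 listed genes passed, from 148 counts for Gar1, the lowest, and 387 for Noc2l up to 17628 for Ncl. All 40 were also among the 11490 genes tested, of 52997 symbols in the table. By role the list held 4 genes of the Myc network, 4 of rRNA transcription, 4 that shape the nucleolus, 8 of small nucleolar ribonucleoprotein particles (snoRNPs), 10 of the small ribosomal subunit and 10 of the large subunit.

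The cells came from livers of C57BL/6 mice that were Aire- and carried a Foxp3 GFP reporter, at 5 or 10 days of age. Live CD4+ cells that carried CD45 and TCRb and lacked Foxp3, the factor of regulatory T cells, were sorted and split by PD-1 on the surface, an inhibitory receptor whose gene is Pdcd1. Each age gave a PD-1- and a PD-1+ group, so there were 4 groups, each with 2 libraries of 1000 sorted cells. Every group lacked Aire, the thymic regulator of self-antigen expression, and Aire-sufficient mice were not analysed here. No label ties a library to its own animal, so p-values measure only the spread between these libraries. That spread may be technical at 10 days, and at 5 days it also holds a difference of sex, given below. In these bulk libraries, fewer cells that express a gene and less RNA per cell cannot be told apart.

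Myc pairs with Max and binds E-box DNA at genes of growth, among them genes for making ribosomes, while Mxd proteins pair with the same Max and repress. Ribosome assembly starts in the nucleolus, where RNA polymerase I makes the rRNA precursor, snoRNPs modify it, and assembly factors fold and cut it into the small and large subunits. Resting T cells make few ribosomes, and antigen stimulation induces Myc and this assembly programme before division.

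Library totals ranged from 1473216 to 3019551 counts. Pdcd1 had 1 to 5 counts in PD-1- libraries and 564 to 1953 in PD-1+ libraries, and Cd4 had 1101 to 4279 in all. Foxp3 had 10 to 32 counts in PD-1- and 0 to 2 in PD-1+ libraries. Aire had 1 and 2 counts in 1 library each and 0 in the rest. Xist and Y-linked genes marked both 5-day libraries numbered 3 as male and the other 6 libraries as female, so sex was partly mixed with age. Values below are CPM, which adjusts counts for library size with a TMM factor, unless a log2 fold change is named. A gene was called at a Benjamini-Hochberg adjusted p below 0.05 in edgeR's quasi-likelihood test over all 11490 genes, and ± after a log2 fold change is its standard error. Library values are given by group, the PD-1- before the PD-1+ libraries and 5 before 10 days, with 5-day replicates 2 and 3 and 10-day replicates 1 and 2.

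At 5 days most of these genes were higher in the PD-1+ population, and at 10 days most were not. Together the 40 genes took 0.480 and 0.458% of the counts of the 5-day PD-1- libraries and 0.634 and 0.571% of the 5-day PD-1+ libraries. At 10 days the shares were 0.514 and 0.464% in PD-1- and 0.399 and 0.406% in PD-1+ libraries. The PD-1+ libraries thus stood above the PD-1- libraries at 5 days and below them at 10 days, with no overlap at either age. For 29 of the 40 genes the group with the highest mean CPM was 5-day PD-1+, which was so for 28.3% of all tested genes.

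**Figure D1:**
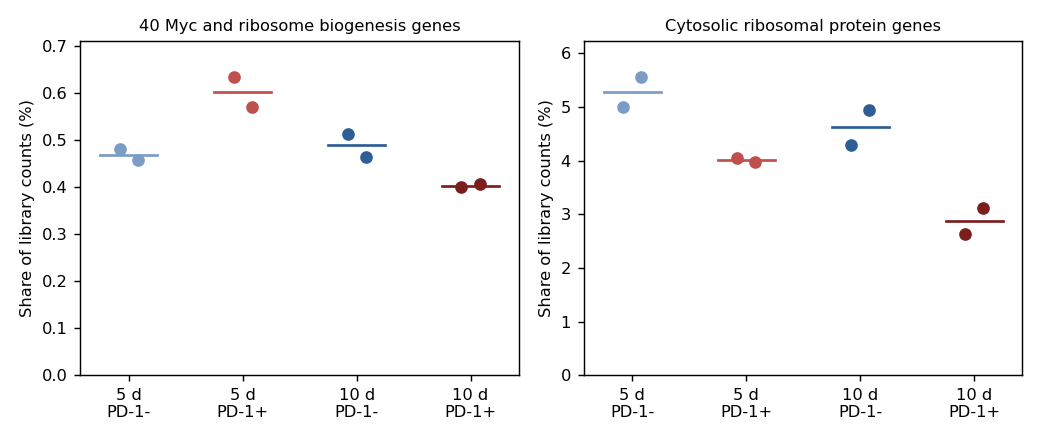
Share of each library's counts (%, y axis) taken by the 40 Myc and ribosome biogenesis genes (left) and by cytosolic ribosomal protein genes (right) in the 4 groups (x axis). Points are single libraries and lines are group means. The 40 genes were at 0.634 and 0.571% in 5-day PD-1+ cells and at or below 0.514% in every other library.

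At 5 days, 23 of the 40 genes were called higher in PD-1+ cells, where 17.6% of all tested genes were, and 2 were called lower, Mxd4 and Wdr12, where 16.7% of all were. Their median log2 fold change was 0.70, against -0.035 over all tested genes. At 10 days, 2 genes were called higher, Mxd1 and Nolc1 (16.4% of all tested genes), and 8 lower (12.9% of all), with a median of -0.24 against 0.01 over all. Over both ages together, 11 were higher, where 21.9% of all tested genes were, and 3 lower, Wdr12, Polr1a and Nop56, where 19.6% were, with a median of 0.20. The 11 ranged from 1.02 ± 0.197 for Nhp2 and 0.97 ± 0.18 for Nolc1 down to 0.43 ± 0.16 for Ncl on the log2 scale. The count of 11 lies close to the share of all genes, while the count of 23 at 5 days does not. With library totals and no scaling factors the members' split was 13 higher and 5 lower at 5 days, 1 and 9 at 10 days and 7 and 6 over both ages, and with upper-quartile scaling it was 1 and 10 at 10 days and 8 and 4 over both ages. Unscaled totals called 35.5%, 29.5% and 41.2% of all tested genes in that order, in either direction. Upper-quartile scaling called 29.8% of all at 10 days and 41.7% over both ages. Without 5-day PD-1+ replicate 2, 15 genes were called at 5 days, without both 5-day libraries numbered 3, 14 were called at 5 days and 6 over both ages, and without 10-day PD-1- replicate 1, 4 were called at 10 days.

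Between 5 and 10 days many of the genes fell in PD-1+ cells, Myc among them. There 22 of 40 were called lower at 10 days (6.98% of all tested genes) and 1, Mxd4, higher (7.39% of all), with a median log2 fold change of -0.84 against 0.046 over all. In PD-1- cells none of the 40 was called in either direction (edgeR, 0.27% of all tested genes), with a median of 0.074. DESeq2 also called 0 there, and 5 of the 40 had an unadjusted p below 0.05 (12.5%, near the 10.6% of all tested genes). Lower with age were Myc, Mybbp1a, Ncl, Npm1, Gnl3, 5 snoRNP genes (Nhp2, Nop58, Dkc1, Nolc1 and Nop56), 5 small-subunit and 7 large-subunit genes, from -1.78 ± 0.22 for Myc to -0.48 ± 0.15 for Nop56 on the log2 scale. Without 5-day PD-1+ replicate 2, 13 genes were called in PD-1+ cells, and without both male libraries 20 were. Of the large-subunit, snoRNP and small-subunit genes 7, 5 and 5 were called with age, and 4, 3 and 1 without 5-day PD-1+ replicate 2. The snoRNP count was also 3 without 10-day PD-1+ replicate 2, and the small-subunit count was 2 without that library and 3 without 5-day PD-1+ replicate 3. The 5-day PD-1+ libraries enter both the PD-1 comparison at 5 days and the age comparison in PD-1+ cells, so these comparisons are not independent.

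**Figure D2:**
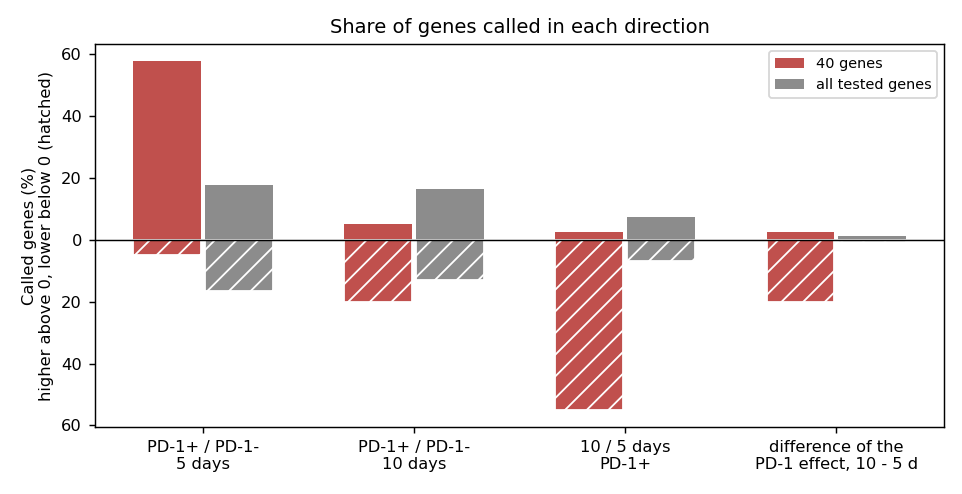
Percent of genes called (y axis, higher above 0, lower hatched below 0) among the 40 genes (red) and among all 11490 tested genes (grey) in 4 comparisons (x axis). The 40 genes stand out upward at 5 days, with 23 called higher, and downward for 10 against 5 days in PD-1+ cells, with 22 called lower.

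The E-box that Myc and Max bind, CACGTG, and the related CACGCG were looked for on both strands of RefSeq promoter windows (GRCm38.p6, 250 bases before to 50 after the start). Of the 40 genes, 34 had a window, 38 windows in all. CACGTG, which reads the same on both strands, lay in 10 of the 34 genes (26.3% of windows), against 10.3% of the windows of tested genes and 7.15% of all promoter windows. CACGCG, or CGCGTG on the other strand, lay in 11 of the 34 genes (31.6% of windows), against 17.4% of the windows of tested genes and 9.27% of all. The windows of members and of tested genes were alike in GC content, with medians of 60.2 and 60.7%, against 52.7% for all promoters. Among members called higher at 5 days, 6 of 19 held CACGTG and 9 of 19 held CACGCG, and among the other members 4 of 15 and 2 of 15 did. These shares were not tested, and a match is a run of letters and not a measured binding site.

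Stretches around CACGTG are shown for 4 assembly factors, all called higher in PD-1+ cells at 5 days, and for Max and Mxd4, which pair with each other. They were chosen after values were seen. CACGTG lay too in Wdr43 and Mybbp1a, also called higher at 5 days, and in Utp20 and Tsr1, which were not called then. Stretches are written 5′ to 3′ on the gene's strand, with the motif in capitals.
Nop2, chr6:125131811-125131840, + strand: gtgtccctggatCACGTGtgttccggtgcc
Pes1, chr11:3963965-3963994, + strand: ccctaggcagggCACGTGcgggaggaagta
Ltv1, chr10:13193092-13193121, - strand: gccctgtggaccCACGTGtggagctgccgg
Utp4, chr8:106893643-106893672, + strand: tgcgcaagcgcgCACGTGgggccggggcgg
Max, chr12:76962234-76962263, - strand: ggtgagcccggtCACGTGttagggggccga
Mxd4, chr5:34187912-34187941, - strand: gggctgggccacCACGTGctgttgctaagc

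Over both ages together, 6 members had the largest called differences upward in PD-1+ against PD-1- cells (Nhp2, Nolc1, Ebna1bp2, Nop16, Mxd1 and Nip7). None of them had CACGTG in its window. Of these, 4 had the related motif, and they are shown with CACGCG or CGCGTG in capitals.
Nhp2, chr11:51619764-51619793, + strand: ggaggcggcggcCGCGTGgttcctctatgc
Nolc1, chr19:46075810-46075839, + strand: gcaggatgatgaCGCGTGtgggaccggaag
Nop16, chr13:54590029-54590058, - strand: ggagactattaaCACGCGgctctgagagcg
Nip7, chr8:107056824-107056853, + strand: aggctagagagaCACGCGttcgtggacccc

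Of the Myc network, Myc was high in 1 of the 4 groups, and Mxd4 was low in that same group. Myc, the growth-promoting transcription factor (chr15:61985391-61990374, + strand, GRCm38), was at 50.5 and 46.6 CPM in PD-1- and 159 and 126 CPM in PD-1+ libraries at 5 days, and at 52.8 and 44.2 CPM in PD-1- and 42.7 and 40.1 CPM in PD-1+ libraries at 10 days. Both 5-day PD-1+ libraries lay above the other 6, which spanned 40.1 to 52.8 CPM. Its log2 fold change between PD-1+ and PD-1- cells was 1.55 ± 0.22 (edgeR adjusted p = 4.56e-05) at 5 days and -0.24 ± 0.22 (edgeR adjusted p = 0.466) at 10 days. In PD-1+ cells Myc fell by 1.78 ± 0.22 on the log2 scale between the ages (edgeR adjusted p = 6.01e-05), and in PD-1- cells the difference was 0.0054 ± 0.23 (edgeR adjusted p = 1).

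Mxd4, a partner of Max that represses transcription, was at 102 and 110.2 CPM in PD-1- and 43.2 and 45.8 CPM in PD-1+ libraries at 5 days, and at 115 and 147 CPM in PD-1- and 129 and 139.5 CPM in PD-1+ libraries at 10 days. Both 5-day PD-1+ libraries lay below the other 6. The PD-1 difference was -1.25 ± 0.199 (edgeR adjusted p = 0.000137) at 5 days and 0.043 ± 0.18 (edgeR adjusted p = 0.891) at 10 days, and Mxd4 rose with age in PD-1+ cells by 1.59 ± 0.197 (edgeR adjusted p = 6.28e-05). Mxd1, another repressing partner of Max, followed a different course. In the same order it was at 226 and 166, 292 and 248, 152 and 134, and 346 and 258 CPM. Its PD-1+ libraries lay above the PD-1- libraries at each age, and the difference was called at 10 days, 1.07 ± 0.19 (edgeR adjusted p = 0.000404), but not at 5 days, 0.46 ± 0.19 (edgeR adjusted p = 0.0701). Max, the shared partner, was at 54.1 and 44.9, 34.5 and 29.1, 26.9 and 46.2, and 28.8 and 31.3 CPM, and its PD-1 difference was not called at 5 days, -0.64 ± 0.298 (edgeR adjusted p = 0.105), or at 10 days, -0.25 ± 0.300 (edgeR adjusted p = 0.579). Per kilobase of exonic length, Myc was at 52.4 CPM and Max at 8.84 CPM in 5-day PD-1+ cells, and at 15.2 and 8.36 CPM in 10-day PD-1+ cells.

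**Figure D3:**
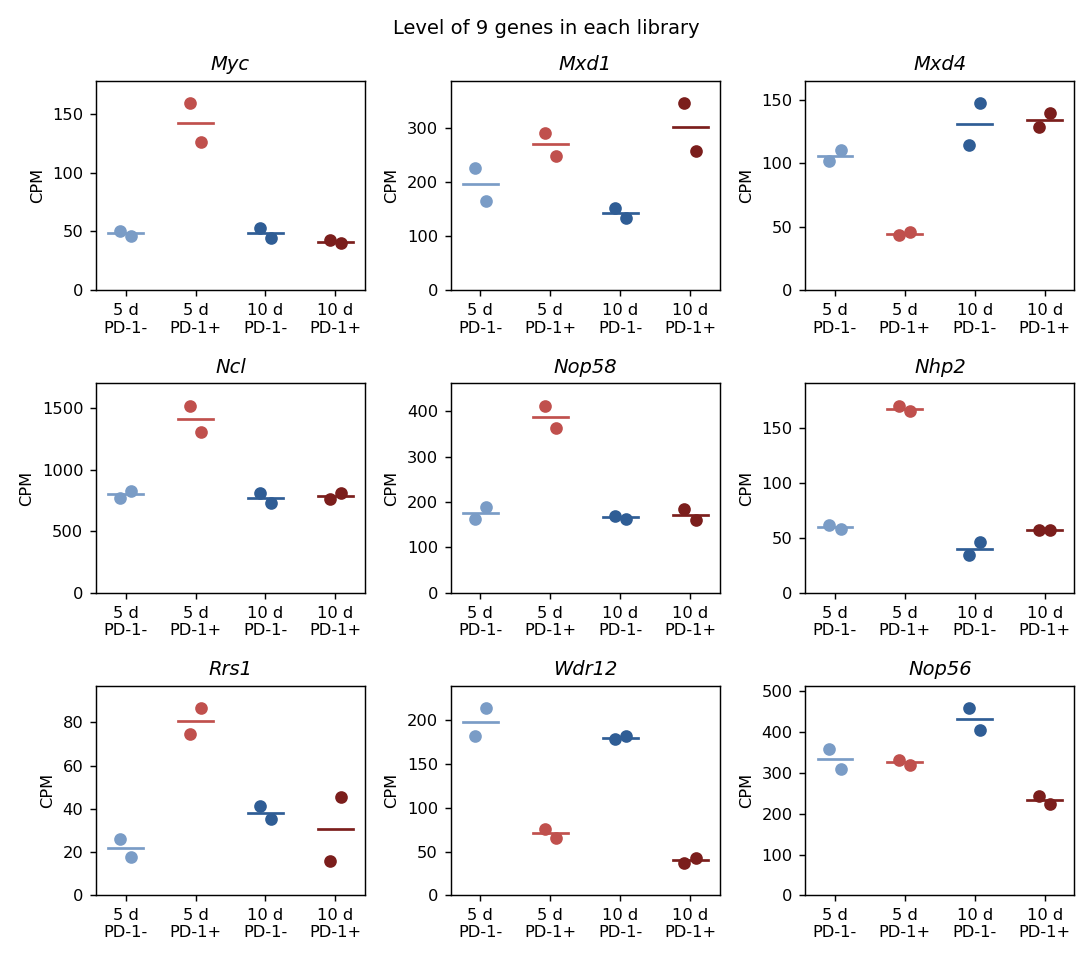
CPM (y axis) of 9 genes in the 8 libraries by group (x axis), with points for libraries and lines for group means. Myc, Ncl, Nop58, Nhp2 and Rrs1 are highest in both 5-day PD-1+ libraries, Mxd4 is lowest there, and Wdr12 is low in PD-1+ libraries of both ages.

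Of the 4 genes of rRNA transcription, 1, Mybbp1a, was called higher in PD-1+ cells at 5 days, against 17.6% of all tested genes. At 10 days 3, Polr1a, Polr1b and Mybbp1a, were called lower, against 12.9% of all. Without 10-day PD-1- replicate 1, 10-day PD-1- replicate 2 or 10-day PD-1+ replicate 2, the calls of Polr1b and Mybbp1a at 10 days were lost. The 10-day call of Mybbp1a was also lost without 10-day PD-1+ replicate 1, 5-day PD-1+ replicate 2 or 5-day PD-1+ replicate 3. It was lost as well with DESeq2 and with no filter on low counts. The call of Mybbp1a at 5 days was lost without 5-day PD-1- replicate 3, 5-day PD-1+ replicate 2 or both 5-day libraries numbered 3. Polr1a, the largest subunit of RNA polymerase I, was at 93.3 and 72.1, 53.5 and 58.2, 120.5 and 90.4, and 39.2 and 43.9 CPM. Its PD-1+ libraries lay below the PD-1- libraries at both ages, with log2 fold changes of -0.57 ± 0.23 (edgeR adjusted p = 0.0635) at 5 days, which was not called, and -1.35 ± 0.23 (edgeR adjusted p = 0.000264) at 10 days. Polr1b, the second-largest subunit, was at 39.5 and 29.5, 45.8 and 54.9, 51.5 and 53.99, and 33.5 and 22.5 CPM. It was called at 10 days, -0.91 ± 0.28 (edgeR adjusted p = 0.0203), and not at 5 days, where the value was 0.53 ± 0.28 (edgeR adjusted p = 0.154). Mybbp1a, a nucleolar protein that binds Myb, was at 165 and 121, 227 and 197, 141 and 124, and 85.5 and 99.5 CPM. It was higher in PD-1+ cells at 5 days, 0.56 ± 0.18 (edgeR adjusted p = 0.0258), and lower at 10 days, -0.52 ± 0.19 (edgeR adjusted p = 0.046), and it fell in PD-1+ cells with age by 1.20 ± 0.19 on the log2 scale. Polr1c, a subunit shared with RNA polymerase III, was at 68.7 and 79.5, 81.3 and 70.2, 92.3 and 78.1, and 70.5 and 67.1 CPM and was not called in any comparison.

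Of the 4 genes that shape the nucleolus, Ncl, Npm1 and Ddx21 were called higher in PD-1+ cells at 5 days (17.6% of all tested genes). Gnl3 was called lower at 10 days (12.9% of all). The call of Gnl3 was lost without 10-day PD-1- replicate 1 or 10-day PD-1+ replicate 2. That of Npm1 was lost without 5-day PD-1- replicate 2 or 5-day PD-1+ replicate 2, and with unscaled library totals. That of Ddx21 was lost without both 5-day libraries numbered 3. Ncl, nucleolin, was at 772 and 828 CPM in PD-1- and 1519.8 and 1307 CPM in PD-1+ libraries at 5 days, and at 811 and 734 CPM in PD-1- and 765 and 813 CPM in PD-1+ libraries at 10 days. Both 5-day PD-1+ libraries lay above the other 6, and the 10-day populations overlapped. Its PD-1 difference was 0.82 ± 0.13 (edgeR adjusted p = 0.000162) at 5 days and 0.029 ± 0.13 (edgeR adjusted p = 0.895) at 10 days. Npm1, nucleophosmin, a nucleolar chaperone, was at 723 and 734, 1116 and 951, 645 and 628, and 473 and 569.6 CPM. It differed by 0.505 ± 0.14 (edgeR adjusted p = 0.0104) at 5 days and, in the opposite direction and not called, by -0.29 ± 0.14 (edgeR adjusted p = 0.139) at 10 days. Per kilobase, Npm1 had the highest level of the 40 genes in every group, 388 CPM in 5-day PD-1+ and 196 CPM in 10-day PD-1+ cells. Ddx21, a nucleolar RNA helicase, was at 124 and 99.4, 182 and 192, 132 and 132, and 158 and 170.1 CPM. Its PD-1+ libraries lay above its PD-1- libraries at both ages, with a difference of 0.73 ± 0.17 (edgeR adjusted p = 0.00284) at 5 days and 0.31 ± 0.17 (edgeR adjusted p = 0.173) at 10 days. Gnl3, nucleostemin, a GTP-binding protein of the nucleolus, was at 58.6 and 42.02, 70.00 and 55.4, 62.8 and 50.7, and 38.1 and 22.1 CPM. It was called at 10 days, -0.92 ± 0.29 (edgeR adjusted p = 0.024), and not at 5 days, 0.302 ± 0.28 (edgeR adjusted p = 0.442).

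Of the 8 snoRNP genes, 4 (Nop58, Nhp2, Dkc1 and Nolc1) were called higher in PD-1+ cells at 5 days (17.6% of all tested genes). At 10 days 1 was higher (Nolc1, against 16.4% of all) and 2 lower (Nop56 and Dkc1, against 12.9% of all). Without 10-day PD-1- replicate 1, 10-day PD-1- replicate 2 or 10-day PD-1+ replicate 1, the 10-day calls of Dkc1 and Nolc1 were lost. That of Nolc1 was also lost without 5-day PD-1+ replicate 2 or 5-day PD-1+ replicate 3, and with DESeq2 or upper-quartile scaling. The 5-day call of Dkc1 was lost without 5-day PD-1- replicate 3 or 5-day PD-1+ replicate 2. It was lost as well with DESeq2, upper-quartile scaling, unscaled library totals or no filter on low counts. Box C/D particles, which guide methylation of rRNA, are built on the paralogs Nop56 and Nop58 with the methyltransferase Fbl. Nop58 was at 162 and 188 CPM in PD-1- and 411 and 362 CPM in PD-1+ libraries at 5 days, and at 170.0 and 162 CPM in PD-1- and 184 and 159.5 CPM in PD-1+ libraries at 10 days. Both 5-day PD-1+ libraries were above the other 6, by 1.15 ± 0.16 (edgeR adjusted p = 3.25e-05) against PD-1- cells of that age, while at 10 days the difference was 0.047 ± 0.16 (edgeR adjusted p = 0.861). Nop56 was at 359.7 and 309, 332 and 319.9, 458 and 405, and 244 and 223 CPM. At 5 days its populations overlapped, -0.038 ± 0.15 (edgeR adjusted p = 0.872), and at 10 days both PD-1+ libraries lay below both PD-1- libraries, -0.89 ± 0.15 (edgeR adjusted p = 0.00023). Fbl was at 40.2 and 10.8, 36.03 and 26.3, 15.9 and 26.02, and 6.77 and 20.03 CPM. It was not called in any comparison, and its 5-day PD-1- replicates lay far apart.

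Box H/ACA particles, which guide pseudouridylation, are built from the enzyme Dkc1 with Nhp2, Gar1 and Nop10. Nhp2 was at 62.2 and 58.5 CPM in PD-1- and 170.4 and 166 CPM in PD-1+ libraries at 5 days, and at 34.7 and 46.2 CPM in PD-1- and 57.7 and 57.6 CPM in PD-1+ libraries at 10 days. It was higher in PD-1+ cells at 5 days by 1.47 ± 0.204 (edgeR adjusted p = 3.53e-05), and its 10-day difference of 0.53 ± 0.21 (edgeR adjusted p = 0.0713) was not called. In PD-1+ cells it fell with age by 1.54 ± 0.20 on the log2 scale (edgeR adjusted p = 0.000114). Dkc1 was at 155 and 131, 231 and 178, 148 and 144, and 85.8 and 105 CPM. It was higher in PD-1+ cells at 5 days, 0.52 ± 0.18 (edgeR adjusted p = 0.0356), and lower at 10 days, -0.61 ± 0.18 (edgeR adjusted p = 0.0189), with no overlap of libraries at either age. Gar1, at 6.48 and 7.38, 19.04 and 10.98, 4.86 and 5.204, and 2.85 and 8.43 CPM, and Nop10, at 83.3 and 120.4, 80.8 and 54.9, 47.6 and 56.6, and 54.1 and 51.7 CPM, were not called in any comparison. Nolc1, a chaperone of snoRNPs, was at 77.4 and 60.8, 177 and 174, 62.2 and 65.7, and 109.7 and 82.2 CPM. Its PD-1+ libraries were above its PD-1- libraries at both ages, by 1.33 ± 0.202 (edgeR adjusted p = 8.38e-05) at 5 days and 0.59 ± 0.204 (edgeR adjusted p = 0.0381) at 10 days.

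Of the 10 small-subunit genes, 5 were called higher in PD-1+ cells at 5 days (Rrp9, Wdr43, Utp4, Utp15 and Ltv1) and 1 lower at 10 days (Nob1), against 17.6% and 12.9% of all tested genes. At 5 days the 5 became 2 without 5-day PD-1+ replicate 2 (Rrp9, Wdr43 and Utp4 lost), 2 without 5-day PD-1+ replicate 3 (Wdr43, Utp15 and Ltv1 lost), 3 without 5-day PD-1- replicate 3 (Wdr43 and Utp4 lost) and 2 without both 5-day libraries numbered 3. The call of Nob1 was lost without 10-day PD-1- replicate 1. None was called over both ages (edgeR, 0 of the 10 had an unadjusted p below 0.05, and DESeq2 called 0). Rrp9, a protein of the U3 snoRNP that starts small-subunit assembly, was at 43.7 and 51.7 CPM in PD-1- and 109 and 69.7 CPM in PD-1+ libraries at 5 days, and at 51.2 and 59.8 CPM in PD-1- and 33.8 and 35.1 CPM in PD-1+ libraries at 10 days. Its PD-1+ libraries were above the PD-1- libraries at 5 days, 0.91 ± 0.25 (edgeR adjusted p = 0.011), and below them at 10 days, where -0.68 ± 0.26 (edgeR adjusted p = 0.0592) was not called. Utp15 and Utp4, of the complex that first binds the rRNA precursor, were at 45.04 and 44.9, 83.4 and 100.3, 76.8 and 44.9, and 59.8 and 40.8 CPM and at 82.6 and 73.8, 133 and 128, 105 and 99.5, and 107 and 64.3 CPM. At 5 days they differed by 1.03 ± 0.27 (edgeR adjusted p = 0.00824) and 0.73 ± 0.22 (edgeR adjusted p = 0.0173). Wdr43, of the same complex, was at 166 and 114, 218 and 201, 143 and 154, and 101 and 121 CPM, with a 5-day difference of 0.57 ± 0.19 (edgeR adjusted p = 0.026).

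The late factors Nob1, Ltv1 and Tsr1 act on the nearly finished small subunit. Nob1, the nuclease that makes the end of 18S rRNA, was at 70.6 and 67.00, 80.8 and 67.8, 94.9 and 65.04, and 38.5 and 40.8 CPM. Its 10-day PD-1+ libraries were the lowest of the 8, with a difference from PD-1- cells of -1.03 ± 0.24 (edgeR adjusted p = 0.00328), against 0.11 ± 0.23 (edgeR adjusted p = 0.757) at 5 days. Ltv1, an assembly factor, was at 58.6 and 80.6, 113 and 124, 76.4 and 68.9, and 66.96 and 67.1 CPM, and differed by 0.78 ± 0.21 (edgeR adjusted p = 0.00879) at 5 days. Tsr1 was at 70.96 and 31.8, 96.8 and 76.9, 76.8 and 69.6, and 52.00 and 52.7 CPM and was not called at 5 days, 0.72 ± 0.29 (edgeR adjusted p = 0.0706), where its PD-1- libraries lay far apart. The early factors Utp20, Nop14 and Rrp12 were not called in any comparison. Utp20 was at 28.8 and 24.98, 29.9 and 29.6, 20.7 and 21.5, and 28.1 and 18.6 CPM, Nop14 at 52.8 and 47.1, 68.5 and 42.97, 62.5 and 59.8, and 43.8 and 40.4 CPM, and Rrp12 at 30.5 and 35.2, 55.6 and 44.9, 38.9 and 37.1, and 35.3 and 26.7 CPM. For Rrp12 both 5-day PD-1+ libraries were above all others, but its difference of 0.62 ± 0.27 at 5 days did not pass (edgeR adjusted p = 0.0895). With age in PD-1+ cells, Rrp9, Wdr43, Utp15, Nob1 and Ltv1 were called lower.

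All 10 large-subunit genes were called at 5 days, 9 of them higher in PD-1+ cells (17.6% of all tested genes) and 1, Wdr12, lower (16.7% of all). Without 5-day PD-1+ replicate 2, Nip7, Noc2l, Pes1 and Rrp1b lost the call and 6 were left, and without both 5-day libraries numbered 3, Rrs1 lost it too and 5 were left. Nip7 and Rrp1b lost the call without any 1 of the 4 libraries of that age. Wdr12 forms the PeBoW complex of large-subunit maturation with Pes1 and Bop1. Wdr12 was at 182 and 214 CPM in PD-1- and 76.2 and 65.9 CPM in PD-1+ libraries at 5 days, and at 179 and 181 CPM in PD-1- and 36.7 and 43.2 CPM in PD-1+ libraries at 10 days. All 4 PD-1+ libraries lay below all 4 PD-1- libraries, with log2 fold changes of -1.47 ± 0.18 (edgeR adjusted p = 1.05e-05) at 5 days and -2.17 ± 0.19 (edgeR adjusted p = 1.69e-07) at 10 days. Its partners went the other way at 5 days. Bop1 was at 94.9 and 92.6, 171 and 192, 105 and 94.96, and 99.01 and 106 CPM and Pes1 at 82.95 and 74.95, 128 and 126, 68.3 and 65.04, and 70.2 and 63.6 CPM. In both genes the 5-day PD-1+ libraries were above all others, by 0.95 ± 0.17 (edgeR adjusted p = 0.000419) and 0.68 ± 0.19 (edgeR adjusted p = 0.0108) against PD-1- cells of that age. At 10 days the differences were 0.036 ± 0.17 (edgeR adjusted p = 0.901) and 0.0017 ± 0.19 (edgeR adjusted p = 0.996).

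Rrs1, which brings the 5S particle into the large subunit, had the largest 5-day log2 fold change of the 40 genes. It was at 25.9 and 17.6, 74.6 and 86.4, 41.1 and 35.1, and 15.7 and 45.3 CPM. The difference was 1.86 ± 0.404 (edgeR adjusted p = 0.00364) at 5 days, and the 10-day PD-1+ replicates lay on both sides of the PD-1- replicates. Ebna1bp2 and Nop16, 2 nucleolar assembly factors, were at 51.2 and 40.9, 127 and 114, 46.96 and 50.7, and 63.4 and 50.6 CPM and at 43.4 and 26.7, 103 and 81.2, 31.1 and 27.97, and 33.5 and 34.4 CPM. Both were higher in 5-day PD-1+ cells, by 1.37 ± 0.22 (edgeR adjusted p = 0.000174) and 1.37 ± 0.27 (edgeR adjusted p = 0.000874). Nop2, an rRNA methyltransferase, was at 60.9 and 56.8, 119 and 112, 70.3 and 54.6, and 68.4 and 58.3 CPM, with a 5-day difference of 0.97 ± 0.21 (edgeR adjusted p = 0.0021). Nip7, Noc2l and Rrp1b act in pre-rRNA processing or at the nucleolus. Nip7 was at 41.5 and 41.5, 72.6 and 79.7, 37.6 and 37.7, and 71.2 and 36.5 CPM, Noc2l at 11.7 and 15.3, 29.9 and 27.7, 18.8 and 22.1, and 25.3 and 15.8 CPM, and Rrp1b at 33.1 and 30.7, 58.7 and 56.3, 26.2 and 27.97, and 41.3 and 35.5 CPM. In all 3 the 5-day PD-1+ libraries were above the 5-day PD-1- libraries, by 0.88 ± 0.28, 1.11 ± 0.36 and 0.85 ± 0.26 on the log2 scale (edgeR adjusted p = 0.0242, 0.0238 and 0.0172). With age in PD-1+ cells, 7 of the 10 were called lower, and Nip7, Noc2l and Rrp1b were not.

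Of the 40 genes, 16 overlap exons of a gene on the opposite strand in GENCODE M21, the longest overlaps being 1240 bases of Tsr1 with Srr, 598 of Noc2l with Samd11 and 514 of Mxd4 with Gm42846, and 5 to 185 bases in the others. Whether the counting used strand is not stated in any label, so reads of such partners cannot be told apart.

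**Figure D4:**
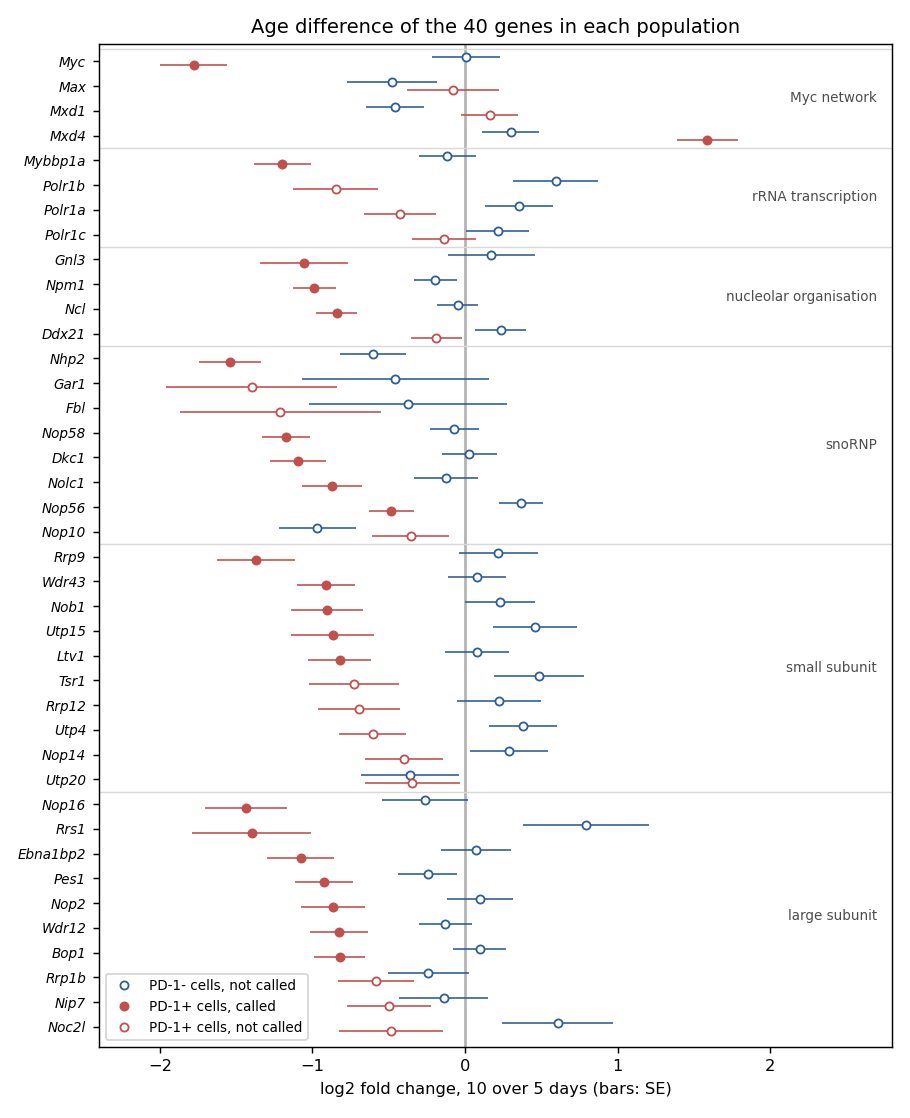
Log2 fold change of 10 over 5 days (x axis, bars are SE) for the 40 genes by role (y axis), in PD-1- cells (blue) and PD-1+ cells (red), filled where called. In PD-1+ cells 22 genes are called lower and Mxd4 is called higher, and in PD-1- cells none is called.

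Whether the PD-1 difference itself changed with age was tested as an interaction, the 10-day difference minus the 5-day difference. It was called negative for 8 of the 40 genes (0.923% of all tested genes) and positive for 1, Mxd4 (1.2% of all). The negative genes were Myc, Nop58, Rrp9, Dkc1, Ncl, Mybbp1a, Nop56 and Npm1. The members' median was -0.92, against 0.043 over all tested genes, and 30 of the 40 had an unadjusted p below 0.05, against 15.0% of all tested genes. Myc had the smallest p, -1.78 ± 0.31 (edgeR adjusted p = 0.00663), followed by Nop58, -1.101 ± 0.22 (edgeR adjusted p = 0.0167), and Mxd4, 1.29 ± 0.27 (edgeR adjusted p = 0.0218). Of the 9 calls, that of Myc was the only one kept in every alternative run. The count was 1 without 10-day PD-1- replicate 1 and also without 5-day PD-1+ replicate 2. It was 3 without both 5-day libraries numbered 3, 4 without 10-day PD-1- replicate 2, 10-day PD-1+ replicate 1 or 5-day PD-1+ replicate 3, 5 without 5-day PD-1- replicate 3, and 4 (1 higher, 3 lower) with library totals and no scaling factors.

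**Figure D5:**
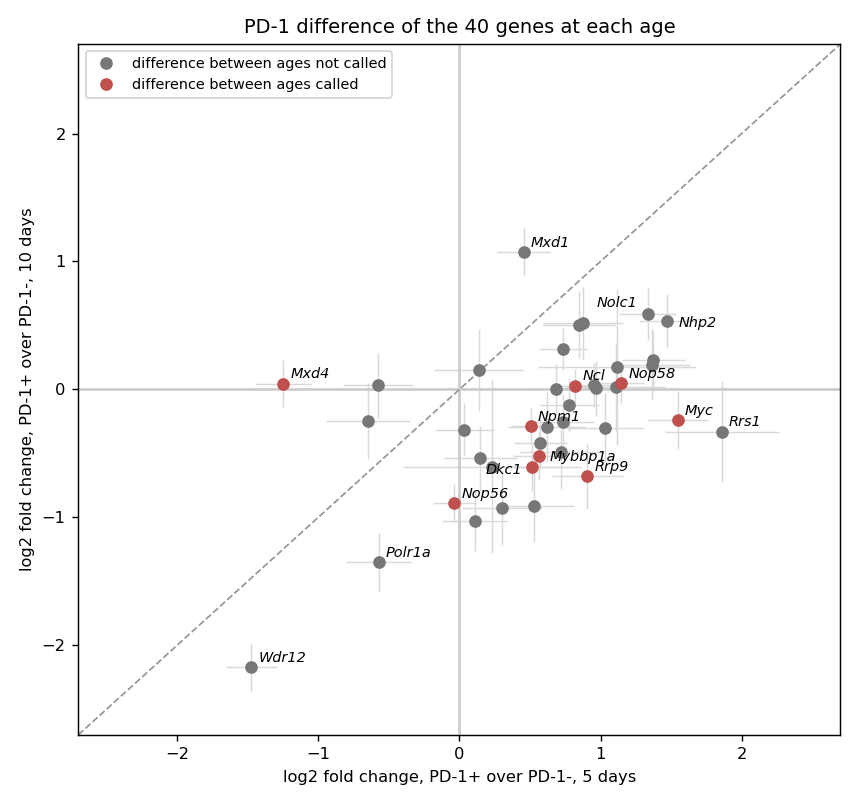
Log2 fold change of PD-1+ over PD-1- cells at 5 days (x axis) and 10 days (y axis) for the 40 genes, with SE bars, red where the difference between the ages was called, and a dashed line of equal change. Most genes lie below the line, Myc at 1.55 and -0.24, and Mxd4 lies above it at -1.25 and 0.04.

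Other genes of the pathway were read from lists of the same stages, beside the 17.6% of all tested genes called higher and 16.7% called lower in PD-1+ cells at 5 days, and 16.4% and 12.9% at 10 days. These lists were chosen with earlier results of these data known, so their shares are not an independent check on the 40 genes. Of 48 other large-subunit genes, 13 (27.1%) were called higher at 5 days and 2 lower (Tex10 and Mdn1), with a median of 0.44. At 10 days 2 were higher (Eif6 and Ddx24) and 7 lower (14.6%, near the share of all genes), with a median of -0.17. Eif6, which keeps the large subunit from joining early, differed by 1.27 ± 0.17 at 5 days and 0.61 ± 0.17 at 10 days, and Rpf2, a partner of Rrs1, by 1.44 ± 0.28 at 5 days. Of 45 tested small-subunit genes outside the 40, 16 (35.6%) were higher at 5 days and none lower, and at 10 days 4 were higher (8.89%) and 3 lower (Wdr46, Utp14a and Ddx10, 6.67%). Bysl, a late small-subunit factor, had the smallest p among those higher at 5 days, at 1.65 ± 0.29. Of 10 other snoRNP assembly genes, 4 were higher at 5 days, among them the ATPase Ruvbl2, 1.13 ± 0.24, and 1, Shq1, was lower at 10 days. Of 13 other RNA polymerase I genes, 3 were higher (Ubtf, Polr1d and Znrd1, 23.1%) and 2 lower (Ttf1 and Taf1c, 15.4%) at 5 days, both shares near those of all genes, and 1, Polr1d, was higher at 10 days.

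With age in PD-1+ cells, 14 of the 48 other large-subunit genes, 7 of the 45 small-subunit genes and 1 of the 10 snoRNP assembly genes (Ruvbl2) were called lower, beside 6.98% of all tested genes, and none of these or of the polymerase I genes was called higher (edgeR). The interaction was called for 4 large-subunit genes, all negative (8.33%, against 0.923% of all), with Urb1 at -2.15 ± 0.48, Ftsj3 at -1.33 ± 0.303 and Gtpbp4 at -1.097 ± 0.27 as those with the smallest p.

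Myc targets outside ribosome assembly were read the same way, from a list with the same limit, so their shares are no independent check either. Of 28 such genes, 21 (75.0%, against 17.6% of all tested genes) were called higher in PD-1+ cells at 5 days and 1, Ccnd2, lower, and at 10 days 3 (10.7%, against 16.4% of all) were higher (Ldha, Umps and Cdk4), with medians of 1.11 and 0.25. Ldha, lactate dehydrogenase, differed by 2.19 ± 0.13 at 5 days and 0.89 ± 0.13 at 10 days. Hspd1, a mitochondrial chaperone, differed by 1.64 ± 0.18 and the translation factor Eif5a by 1.32 ± 0.15 at 5 days. With age in PD-1+ cells 17 (60.7%, against 6.98% of all) were lower and 1, Ccnd2, higher, and 6 had a negative interaction, among them Ldha, -1.301 ± 0.18 (edgeR adjusted p = 0.00088). Of 6 other tested Myc network genes, Mlx, 1.16 ± 0.22, and Mxd3, 0.89 ± 0.31, were higher and Mga, -1.07 ± 0.24, lower in PD-1+ cells at 5 days. Mxi1, a further repressing partner of Max, was higher at 10 days (edgeR adjusted p = 0.00419) and rose with age in PD-1+ cells, 1.45 ± 0.36, and Mlx and Mxd3 were higher at 10 days as well.

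Genes with symbols of cytosolic ribosomal proteins, most of them the end product's building blocks, were mostly lower or not called in PD-1+ cells. The set was taken by symbol and includes paralogs whose symbols add an l, such as Rpl7l1, Rps27l and Rps4l. Of 83 tested genes of this set, 5 were higher in PD-1+ cells at 5 days (Rpl7l1, Rps27l, Rpsa, Rps4l and Rpl41), against 17.6% of all tested genes. At that age 18 were lower (21.7%, against 16.7% of all). At 10 days 2 were higher (Rps27l and Rpl7l1, against 16.4% of all) and 58 lower (69.9%, against 12.9% of all). The medians were -0.25 at 5 days and -0.60 at 10 days. Their share of library counts at 5 days was 5.00 and 5.55% in PD-1- and 4.04 and 3.97% in PD-1+ libraries, where the 40 assembly and Myc genes took the larger share in PD-1+ cells. At 10 days it was 4.30 and 4.94% in PD-1- and 2.64 and 3.11% in PD-1+ libraries. With age in PD-1+ cells 53 were lower (63.9%, against 6.98% of all) and none higher (edgeR). Rps19, -0.96 ± 0.24 (edgeR adjusted p = 0.0453), was the 1 gene with a called interaction. Many of these genes have near-identical copies, so single counts are uncertain.

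Markers of the sorted cells and of other cells moved with PD-1 and with age. Summed CPM of the library totals are given for PD-1- and then PD-1+ libraries, at 5 and then 10 days. Marker calls stand beside 17.6% of all tested genes called higher and 16.7% lower at 5 days, and 16.4% and 12.9% at 10 days. The 8 CD4 T cell markers were at 4493 to 5284 and 3501 to 3787 at 5 days, and at 4832 to 4838 and 5733 to 6612 at 10 days, so the PD-1+ libraries were lower at 5 and higher at 10 days. At 5 days 2 of the 8 were called lower and at 10 days 4 were called higher. The 2 CD8 T cell markers were at 39.8 to 48.7 and 5.42 to 5.92 at 5 days, and at 30.01 to 40.05 and 21.5 to 27.1 at 10 days, and 1 of them was called lower at each age. The interaction was called for 2 CD4 markers, 1 CD8 marker and 1 macrophage marker.

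The 10 hepatocyte markers (5 tested) were at 11.7 to 20.9 and 30.9 to 79.0 at 5 days, and at 17.3 to 19.01 and 68.1 to 73.5 at 10 days, with 4 and 3 of the 5 called higher in PD-1+ cells. Alb, serum albumin, had 0 to 16 counts in PD-1- and 24 to 119 in PD-1+ libraries. The 10 macrophage markers (5 tested) were at 15.9 to 64.4 and 38.4 to 41.9 at 5 days, and at 3.39 to 4.24 and 37.3 in both PD-1+ libraries at 10 days. They overlapped at 5 days, with none called (edgeR, 0 with an unadjusted p below 0.05), and stood apart at 10 days, with 3 called higher. The 6 dendritic cell markers (3 tested) were at 9.604 to 11.1 and 27.98 to 28.7 at 5 days, and at 22.4 to 23.3 and 58.04 to 73.5 at 10 days, with 1 and 2 called higher. The 6 B cell markers (5 tested) were at 556 to 658 and 267 to 312 at 5 days. At 10 days they were at 574 to 676 and 286 to 301. Of the 5, 1 was called lower at 5 days, and at 10 days 1 was called lower and 1 higher. The 9 erythroid markers (1 tested), of which Car1 was at 0, were at 23.4 to 30.5 and 2.71 to 4.65 at 5 days. At 10 days these were at 11.5 to 18.4 and 2.87 to 5.28, and the 1 tested was called lower at both ages. The part of these markers in the results on the 40 genes was not tested.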

How the data were processed

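Libraries of 1000 double-sorted cells were made from polyadenylated RNA, amplified, tagmented and sequenced as paired short reads, per the labels' protocols. The authors deposited 1 table with a column of raw counts for each library, by gene symbol. STAR 2.5.4, featureCounts and the mm10 build are named in the submitters' processing notes, and no annotation or strand setting is named there. All 8 columns were matched to samples by title. Library totals of 1473216 to 3019551 counts limit precision for low genes such as Gar1.

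Genes were kept by filterByExpr over the 4 groups and scaled by TMM in edgeR 4.0.16 (R 4.3.3). Robust quasi-likelihood F tests used a model of age and PD-1 for both ages together and a 4-group model for the other contrasts. Calls used a Benjamini-Hochberg adjusted p below 0.05 over all tested genes, and SE is the size of the log2 fold change over the root of its F. CPM divides counts by the summed tested counts times the TMM factor. Ratios of same-numbered libraries in the closing section add a pseudocount of 0.5 CPM. Scripts were checked on simulated data.

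The members and lists were chosen with earlier results of these data known. Named genes were all 40 members, with library values for each, and up to 3 genes per list and direction with the smallest p, with Pdcd1 and Cd4. The text also names list genes that make up a count of 5 or fewer, and not every gene the rule gives. The promoter stretches were chosen after values were seen. Marker lists not printed in the report were neutrophil, NK and innate lymphoid, gamma-delta T, and endothelial and stromal. Their summed CPM in PD-1- and PD-1+ libraries were 0.586 to 2.65 and 1.81 to 5.63, 1.66 to 35.3 and 5.87 to 33.4, 4.31 to 18.3 and 21.9 to 41.9, and 313 to 386 and 102 to 136.

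Alternatives were DESeq2 1.42.0, other scaling, no filter, a 2-fold minimum, a replicate block and leaving out libraries. Library totals without scaling factors were added after the data were seen.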

Additional observations from a re-analysis of the deposited data

Results flagged for a closer look

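A change with age in the difference between PD-1+ and PD-1- cells was called for 9 of the 40 genes, against 2.12% of all tested genes. The test was edgeR's interaction (10-day minus 5-day log2 fold change, 2 libraries per group). Only the call of Myc held in every alternative run, and the other calls were lost in at least 1. Of these 9, the largest value was that of Myc, -1.78 ± 0.31 on the log2 scale (adjusted p = 0.00663), whose log2 ratios of PD-1+ over PD-1- libraries of the same number were 1.64 and 1.43 at 5 days and -0.301 and -0.14 at 10 days. For Rrp9 it was -1.58 ± 0.36 (edgeR adjusted p = 0.0323), with ratios of 1.302 and 0.43 at 5 days and -0.59 and -0.76 at 10 days. Mxd4 had the opposite sign, 1.29 ± 0.27 (edgeR adjusted p = 0.0218), with ratios of -1.23 and -1.26 at 5 days and 0.16 and -0.075 at 10 days.

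In the box H/ACA enzyme gene Dkc1 the value was -1.12 ± 0.26 (edgeR adjusted p = 0.0324), with ratios of 0.58 and 0.45 at 5 days and -0.78 and -0.45 at 10 days. The box C/D scaffold genes Nop58 and Nop56 were at -1.101 ± 0.22 and -0.85 ± 0.21 (edgeR adjusted p = 0.0167 and 0.0444). Their ratios were 1.34 and 0.95 at 5 days and 0.11 and -0.022 at 10 days for Nop58 and -0.11 and 0.048 at 5 days and -0.91 and -0.86 at 10 days for Nop56, so Nop58 differed chiefly at 5 days and Nop56 at 10 days. Mybbp1a was at -1.08 ± 0.26 (edgeR adjusted p = 0.0433), with ratios of 0.46 and 0.699 at 5 days and -0.72 and -0.31 at 10 days. The nucleolar genes Ncl, -0.79 ± 0.19, and Npm1, -0.79 ± 0.198, passed narrowly (edgeR adjusted p = 0.0383 and 0.0476), as did Nop56 and Mybbp1a. The ratios were 0.98 and 0.66 at 5 days and -0.085 and 0.15 at 10 days for Ncl. For Npm1 they were 0.63 and 0.37 at 5 days and -0.45 and -0.14 at 10 days.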

How the results depend on the processing

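No member that was called changed sign under any alternative run. With a 2-fold minimum the calls were 2 over both ages, 11 at 5 days, 4 at 10 days and 11 for age in PD-1+ cells. That minimum called 22.8%, 22.3%, 19.7% and 7.62% of all tested genes in the same order. Without a filter on low counts 1 gene, Nop10, was called for age in PD-1- cells (0.553% of all tested genes). For the interaction, library totals without scaling factors gave 4 calls (2.52% of all tested genes). Leaving out single libraries, or both 5-day libraries numbered 3, gave 6 to 18 calls over both ages, 14 to 26 at 5 days, 4 to 10 at 10 days, 0 for age in PD-1- cells, 13 to 25 for age in PD-1+ cells and 1 to 9 for the interaction, and a group left with 1 library was assumed to vary like the others. DESeq2 called 12, 23, 8, 22 and 12 members in the order both ages, 5 days, 10 days, age in PD-1+ cells and interaction. Of all genes with an adjusted p it called 29.4%, 23.6%, 20.5%, 11.1% and 4.89% in that order.

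Calls held in every alternative were Nhp2 and Wdr12 over both ages, Myc, Mxd4, Nhp2, Nolc1, Nop58, Nop16, Ebna1bp2 and Wdr12 at 5 days, Mxd1, Polr1a and Wdr12 at 10 days, Myc, Mxd4, Nhp2, Nop58, Nop16, Ebna1bp2, Dkc1 and Mybbp1a for age in PD-1+ cells, and Myc for the interaction. Library totals without scaling factors moved the median of all genes to -0.26 at 5 days and 0.24 for age in PD-1+ cells, where the members' medians were 0.48 and -0.66. All genes then split into 1442 higher and 2634 lower at 5 days, against 2021 and 1915 with TMM.

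The numbers of the libraries are not tied to animals by the labels. Deviations of same-numbered libraries correlated at 0.083 at 5 days, or 0.039 without sex genes (both libraries numbered 3 were male), and at 0.104 at 10 days. With 2 libraries per group, deviations from the group mean mirror each other. The sign of the correlation alone thus made each library match best with its own number, so that match adds no further information. With the replicate block 11 members were called over both ages, 27 at 5 days, 10 at 10 days and 16 for the interaction (1 higher, 15 lower), where all genes gave 483 calls against 244. The block called 38.3%, 36.2%, 31% and 4.2% of all tested genes in that order.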

Other observations

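Ratios of counts within a library do not depend on scaling, and 3 were read after the values were seen. Nop58 over Nop56, the scaffold genes of box C/D particles, was 0.450 and 0.607 in 5-day PD-1- libraries, 1.24 and 1.13 in 5-day PD-1+ libraries, 0.371 and 0.400 in 10-day PD-1- libraries, and 0.754 and 0.716 in 10-day PD-1+ libraries. The PD-1+ libraries of both ages lay above all PD-1- libraries. Myc over Mxd4, an activating and a repressing partner of Max, was 0.497 and 0.423, 3.67 and 2.75, 0.461 and 0.301, and 0.332 and 0.287 in the same order, so the 5-day PD-1+ libraries stood apart from the other 6. Myc over Mxd1 was 0.224 and 0.280, 0.543 and 0.508, 0.348 and 0.330, and 0.124 and 0.156, highest in 5-day PD-1+ and lowest in 10-day PD-1+ libraries.

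Small nucleolar RNA genes lie within 7 of the 40 genes (17.5%) in GENCODE M21, against 1.85% of 10072 tested protein-coding genes. They are Ncl and Gnl3 with 3 each, Nop56 with 5, Nop58 with 4, Wdr43 with 3, Tsr1 with 2 and Dkc1 with 1. Of these 7, 4 were called higher in PD-1+ cells at 5 days (Ncl, Nop58, Wdr43 and Dkc1). That is close to the share of all 40 (57.5%), against 17.6% of all tested genes. At 10 days 3 were called lower (Gnl3, Nop56 and Dkc1), against 8 of the 40 and 12.9% of all tested genes. The 5-day calls of Wdr43 and Dkc1 and the 10-day calls of Gnl3 and Dkc1 were lost without certain single libraries.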
